A study of Homo sapiens with 3 samples.

Results

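The annexins are a family of calcium-dependent proteins that bind acidic phospholipids, above all phosphatidylserine, on the inner face of membranes. The expression of 8 annexin genes, ANXA1, ANXA2, ANXA3, ANXA4, ANXA5, ANXA6, ANXA7 and ANXA11, was measured by RNA-seq in PC3-Luc prostate cancer cells of 3 lines. The members were the rows of the deposited count table that carry these symbols, 8 of 21726 listed genes, and all 8 had enough counts to be among the 9556 genes tested. Each annexin has a conserved calcium-binding core and an N-terminal tail that differs between members and holds most of their partner sites. They join membranes to the cytoskeleton, take part in vesicle fusion and gather at torn plasma membrane. In prostate cancer, ANXA2 is known for its part in the attachment of tumor cells to bone, and ANXA7 has been proposed as a tumor suppressor.

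PC3 is an androgen-independent line from a bone metastasis of a prostate adenocarcinoma, and every line here carries a luciferase gene from a pMSCV vector. The sh718 and sh720 lines bear different short hairpins against CTHRC1, which encodes a secreted glycoprotein linked to cell migration, and the control line bears a control hairpin. Each line had 3 libraries, made after 24 h in culture. The sources used here do not say whether a line is 1 clone or a pool, or whether its libraries came from separate cultures, so p-values cover the variation among these libraries alone, and it may be technical. The comparisons ask which annexins differ in cells with a CTHRC1 hairpin, and whether the 2 hairpin lines are alike in this.

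Library totals ran from 883663 to 1108960 counts. CTHRC1 summed to 5 counts in sh718, 47 in sh720 and 331 in control, lowest in the line labelled sh718 and highest in the control line. Expression is given as counts-per-million (CPM) values, scaled by edgeR's TMM method. The 5 epithelial markers summed to 1867 to 2039 CPM in sh718, 1818 to 2009 CPM in sh720 and 1552 to 1749 CPM in control, mostly from the keratin genes KRT18 and KRT19. EPCAM, another of the 5, went the other way in sh718, at 13.1 to 15.9 CPM in sh718, 33.3 to 46.2 CPM in sh720 and 30.4 to 45.1 CPM in control. The adhesion gene CDH1, also an epithelial marker, had no more than 8 counts in a line. Of 5 markers of androgen-responsive luminal cells, 3 had a row in the count table, and KLK3 and KLK2 had none. The 3 summed to 23.2 to 30.7 CPM in sh718, 29.8 to 36.8 CPM in sh720 and 27.8 to 40.6 CPM in control. Other cell types had few counts, in that the leukocyte gene PTPRC had at most 4 counts in a line and the fibroblast gene COL1A1 at most 11. PECAM1, the 1 of 3 endothelial markers with a row, was the exception, while VWF and CDH5 had no row. It stood at 46.6 to 51.4 CPM in sh718, 13.4 to 31.2 CPM in sh720 and 21.4 to 25.9 CPM in control. PECAM1 moved with ANXA6, in that it was highest in sh718, and its part in that result was not tested.

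The promoters of the 4 annexins that differed between lines are shown because these genes carry the differences between lines and their windows differ in core elements. They are the 250 bases before the RefSeq start (GRCh38.p14), written 5′ to 3′ on the gene's own strand, which is the minus strand for all 4. Capitals mark matches, on either strand, to the GC box core GGGCGG, the CCAAT box, the TATA box TATAAA, the AP-1 site TGACTCA, the E-box CACGTG or the ETS site CTTCCGG.
ANXA2, chr15:60397987-60398236: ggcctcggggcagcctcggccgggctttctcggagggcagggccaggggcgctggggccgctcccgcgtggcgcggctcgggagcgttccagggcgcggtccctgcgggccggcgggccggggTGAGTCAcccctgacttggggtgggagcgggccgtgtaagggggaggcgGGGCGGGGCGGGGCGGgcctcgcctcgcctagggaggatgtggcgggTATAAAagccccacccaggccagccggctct
ANXA5, chr4:121696981-121697230: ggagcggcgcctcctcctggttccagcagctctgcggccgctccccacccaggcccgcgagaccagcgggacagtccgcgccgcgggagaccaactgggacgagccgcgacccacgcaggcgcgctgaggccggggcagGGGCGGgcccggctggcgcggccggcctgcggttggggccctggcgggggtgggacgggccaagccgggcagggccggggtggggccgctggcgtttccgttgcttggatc
ANXA6, chr5:151157780-151158029: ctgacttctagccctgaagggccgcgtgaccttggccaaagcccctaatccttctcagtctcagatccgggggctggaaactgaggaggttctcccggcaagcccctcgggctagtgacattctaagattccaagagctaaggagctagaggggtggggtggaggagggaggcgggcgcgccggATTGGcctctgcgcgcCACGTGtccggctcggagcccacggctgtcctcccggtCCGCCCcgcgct
ANXA7, chr10:73414059-73414308: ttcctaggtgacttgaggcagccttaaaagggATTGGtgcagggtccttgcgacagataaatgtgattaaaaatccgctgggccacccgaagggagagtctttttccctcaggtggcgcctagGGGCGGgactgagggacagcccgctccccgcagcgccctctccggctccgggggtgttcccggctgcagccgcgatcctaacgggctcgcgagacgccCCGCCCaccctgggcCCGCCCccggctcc

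All 4 windows hold GGGCGG or its reverse complement, as do 42.6% of 35116 RefSeq promoter windows of this length. ANXA2 holds 3 such matches, which overlap at their ends, and is the only window of the 4 with TATAAA and the AP-1 heptamer, found in 10.7% and 4.203% of all windows. ANXA6 is the only one of the 4 with CACGTG, found in 6.34% of all windows, and ANXA6 and ANXA7 each hold a CCAAT match, found in 32.0%. The ANXA5 window holds 1 GC box core and none of the other motifs searched. RefSeq gives ANXA6 a second start further inside the gene, whose window holds none of these letters. Annexins called in no comparison hold some of the same motifs. TATAAA and a CCAAT match occur in windows of ANXA1 and ANXA11, and CACGTG in a window of ANXA4. GGGCGG or its reverse complement occurs in windows of ANXA4 and ANXA11. Any part of these motifs in the differences between lines was not tested. GC content was 78.0% for ANXA2, 78.8% for ANXA5, 65.6% for ANXA6 and 66.0% for ANXA7, against a median of 58.0% over all windows.

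Both hairpin lines had 3 of the 8 annexins called against control, 2 higher and 1 lower, but the sets were not identical. Genes were tested with edgeR's quasi-likelihood test on all 9 libraries and called at a Benjamini-Hochberg adjusted p under 0.05 over all genes tested. ANXA2 and ANXA6 rose in sh718, ANXA2 and ANXA5 rose in sh720, and ANXA7 fell in both. Of all genes tested, 20.4% were called in sh718 against control, 9.56% higher and 10.8% lower. The share was 6.85% for the sh720 line, 3.43% higher and 3.42% lower. In the direct comparison of sh718 with sh720, ANXA6 was higher and ANXA7 lower in sh718, where 25.3% of all genes were called, 12.3% higher and 13% lower. Libraries did not overlap between sh718 and control for 3 members (33.5% of all genes), between sh720 and control for 5 members (23.5% of all genes), and between the hairpin lines for 5 members (37% of all genes). Of those last 5, ANXA1 and ANXA6 were higher in sh718 (18.2% of all genes), and ANXA2, ANXA5 and ANXA7 were lower (18.8%). The median log2 change of the 8 was 0.0010 in sh718 and -0.16 in sh720, beside 0.0024 and 0.0015 for all genes tested. The hairpin comparisons share the control libraries.

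**Figure D1:**
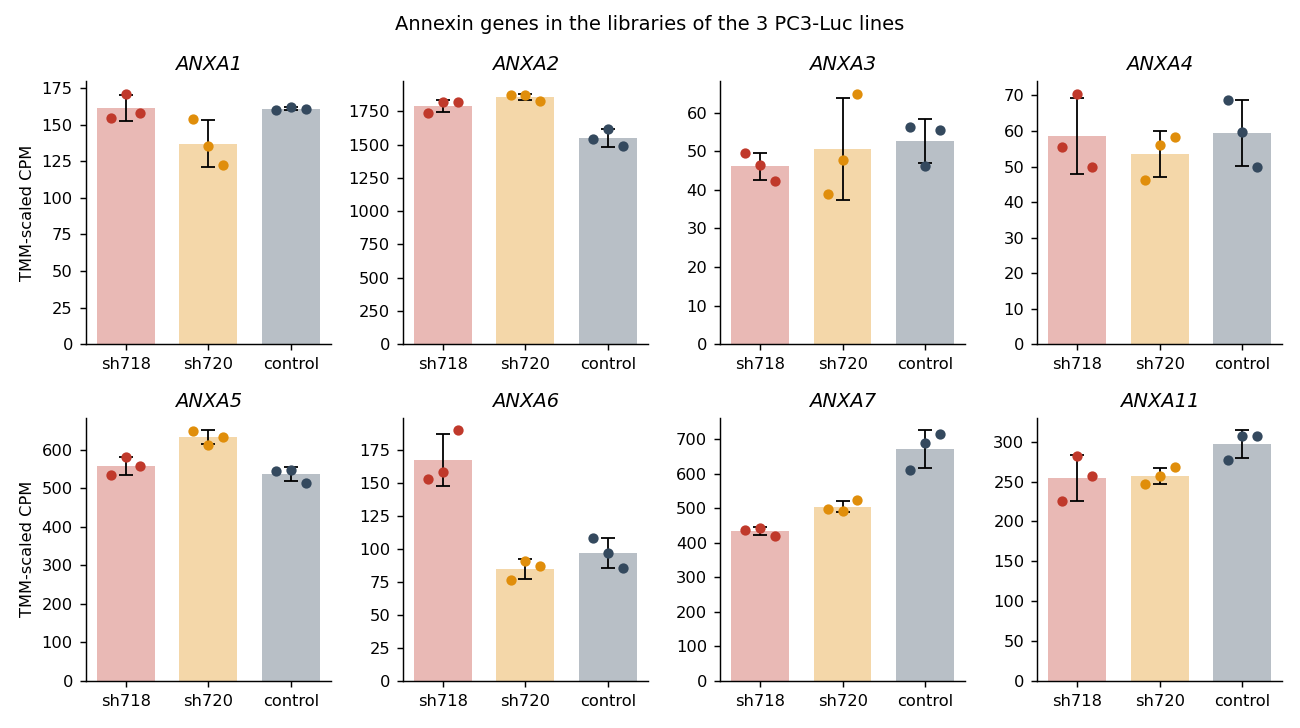
TMM-scaled counts-per-million (CPM) values of each annexin gene by library, with the sh718, sh720 and control lines from left to right. Bars are means, error bars are 1 SD over 3 libraries and points are libraries. The sh718 points of ANXA6 (153 to 190 CPM) lie above all others, and the ANXA7 points of both hairpin lines lie below every control point.

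**Figure D2:**
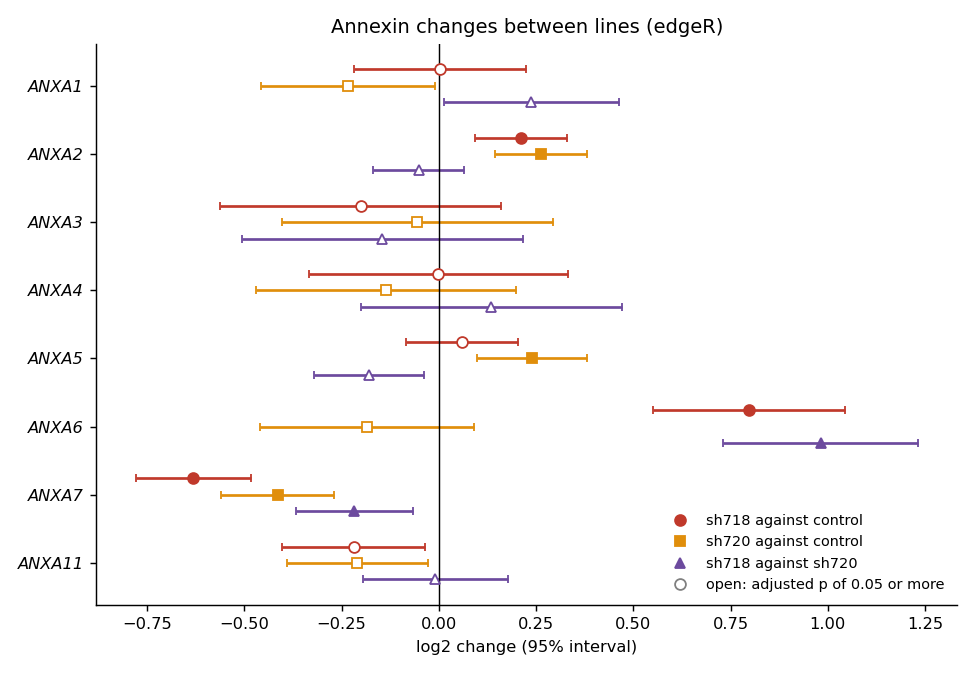
Log2 change of each annexin gene with its 95% interval from edgeR, for each hairpin line against control and for sh718 against sh720. Filled symbols have an adjusted p under 0.05. ANXA6 (0.80) has the highest and ANXA7 (-0.63) the lowest change in sh718 against control.

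ANXA2 and ANXA1 are the annexins best known for pairing with S100 proteins. ANXA2 (ENSG00000182718, GRCh38 chromosome 15, 60347134 to 60402883, minus strand) forms a complex with S100A10 that binds plasminogen and its tissue activator at the cell surface. It had 1739, 1818 and 1822 CPM in the sh718 libraries, 1876, 1872 and 1832 CPM in sh720, and 1540, 1620 and 1490 CPM in control. Every library of both hairpin lines lay above every control library, a separation in this direction that 16.3% of all tested genes showed in sh718 and 11.6% in sh720. ANXA2 rose in sh718 by a log2 of 0.21 (standard error, SE, 0.06), or 15.7%, at an edgeR adjusted p of 0.00642. Its rise in sh720 was 0.26 (SE 0.06), with an adjusted p of 0.00126. Of all tested genes, 0.858% were called higher in both lines. Without control library 3 the sh718 call was lost (0.18, adjusted p 0.0561), the range over all alternatives being 0.000243 to 0.0561. Between sh718 and sh720 the difference was -0.05, with a 95% interval of -0.17 to 0.07.

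ANXA2 alone held 51.6% ± 0.642 of the counts of the 8 genes in sh718, 51.9% ± 0.804 in sh720 and 45.2% ± 1.00 in control (SD, n = 3 libraries each). Together the 8 genes made up 0.334% ± 0.0127 of a library in sh718, 0.363% ± 0.00954 in sh720 and 0.337% ± 0.00922 in control. The genome holds processed copies of ANXA2, and none was among the listed genes with an ANXA symbol. No source used here says how reads shared with them were counted.

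ANXA1 (ENSG00000135046, chromosome 9, 73151757 to 73170393, plus strand) encodes a glucocorticoid-induced protein that restrains phospholipase activity and acts on formyl peptide receptors. Its libraries stood at 154, 171 and 158 CPM in sh718, 154, 135 and 122 CPM in sh720, and 160, 162 and 161 CPM in control. The sh718 values spanned those of control, and all sh720 values lay below them. ANXA1 was called in neither line, with a log2 change of 0.0033 in sh718 (95% interval -0.22 to 0.22) and -0.23 in sh720 (SE 0.11, adjusted p 0.240). The difference of 0.24 between sh718 and sh720 was not called either (adjusted p 0.119). It was called once a trend of counts with GC content and gene length was removed (0.41, adjusted p 0.00318), the range over all alternatives being 0.00318 to 0.394.

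ANXA5, ANXA6, ANXA4 and ANXA3 are short-tailed annexins. ANXA5 (ENSG00000164111, chromosome 4, 121667955 to 121697113, minus strand) encodes the protein used in the laboratory to detect phosphatidylserine on dying cells. It had 535, 580 and 559 CPM in sh718, 650, 613 and 634 CPM in sh720, and 545, 549 and 515 CPM in control. The sh720 libraries were the highest, above all sh718 and control libraries, whereas sh718 and control overlapped. ANXA5 rose in sh720 (log2 0.24, SE 0.07, edgeR adjusted p 0.0236) and lay at 0.06 in sh718 (95% interval -0.08 to 0.20). Leaving out sh720 library 1 or 3, or control library 1 or 3, ended the sh720 call (0.21 to 0.25, adjusted p 0.0579 to 0.139), as did no count minimum (0.0680) and DESeq2 (0.0667), within a range over all alternatives of 0.0124 to 0.139. The difference between sh718 and sh720 was -0.18 (SE 0.07, adjusted p 0.0517) and was not called. It was called with edgeR's filterByExpr in place of the count minimum (-0.18, adjusted p 0.0437) and without sh718 library 2 (-0.21, adjusted p 0.0462), the range over all alternatives being 0.0436 to 0.342.

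ANXA6 (ENSG00000197043, chromosome 5, 151100712 to 151157882, minus strand) had the highest fold of the 8 in sh718 against control and was not called in sh720 against control. The protein carries a duplicated annexin core and scaffolds signaling and cholesterol-rich membrane domains. Its libraries stood at 153, 158 and 190 CPM in sh718, 76.0, 90.5 and 87.3 CPM in sh720, and 108, 97.0 and 85.1 CPM in control. All sh718 libraries lay above all others, while sh720 and control overlapped. ANXA6 was 1.74-fold higher in sh718 than in control (log2 0.80, SE 0.12, edgeR adjusted p 6.06e-07). In sh720 the log2 change was -0.18 (95% interval -0.46 to 0.09, adjusted p 0.518). The direct difference of sh718 from sh720 was 0.98 (SE 0.13, adjusted p 2.9e-09), which is the test that the hairpin lines differ. Over all alternatives the change in sh718 against control stayed between 0.70 and 0.88.

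Several genes around ANXA6 were also higher in sh718. The 5 tested genes on either side span 1.21 Mb and had a median log2 change of 0.41 in sh718 against control. Of these neighbors 4 rose, beside 9.56% called higher among all tested genes. They were the actin-binding gene SYNPO (1.66, SE 0.29, adjusted p 6.91e-06), the NF-kB regulator gene TNIP1 (0.48, SE 0.14, adjusted p 0.00896), the lysosomal gene GM2A (0.39, SE 0.13, adjusted p 0.0216) and the matrix gene SPARC (1.70, SE 0.36, adjusted p 0.000191). In sh720 the same 10 neighbors had a median of -0.12, and 1 of them fell, beside 3.42% called lower among all tested genes. Their part in the ANXA6 result was not tested.

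ANXA4 and ANXA3 were the 2 lowest members by CPM and were called in no comparison. ANXA4 (ENSG00000196975, chromosome 2, 69644425 to 69827100, plus strand), which encodes a membrane-binding annexin of secretory epithelia, had 55.4, 70.5 and 49.8 CPM in sh718, 46.2, 56.1 and 58.2 CPM in sh720, and 68.7, 59.8 and 49.96 CPM in control. ANXA3 (ENSG00000138772, chromosome 4, 78551519 to 78610451, plus strand) stood at 49.5, 46.4 and 42.4 CPM in sh718, 39.0, 47.8 and 65.0 CPM in sh720, and 56.3, 46.2 and 55.5 CPM in control. The 3 lines overlapped for both genes. At 128 to 168 summed counts per line, the 95% intervals against control were -0.33 to 0.33 in sh718 and -0.47 to 0.20 in sh720 for ANXA4, and -0.56 to 0.16 and -0.40 to 0.29 for ANXA3. ANXA4 overlaps AAK1 on the opposite strand (462 counts over the 9 libraries) in part, from 69644425 to 69674349. Since the strand setting is not given, reads from any exons in that stretch could have been credited to either gene.

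ANXA7 and ANXA11 have long tails rich in glycine, proline and tyrosine and lie on the same arm of chromosome 10. ANXA7 (ENSG00000138279, 73375101 to 73414076, minus strand) encodes synexin, which promotes fusion of secretory vesicles. It had 438, 444 and 421 CPM in sh718, 498, 493 and 524 CPM in sh720, and 611, 689 and 716 CPM in control. The 3 lines did not overlap, with sh718 lowest and control highest. Separation below control was shown by 17.1% of all tested genes in sh718 and 11.9% in sh720. ANXA7 fell by 0.63 on the log2 scale in sh718 (SE 0.07), to 0.646 of the control level, with an edgeR adjusted p of 3.32e-10. It fell by 0.41 in sh720 (SE 0.07), to 0.750 of that level, with an adjusted p of 2.15e-05. Lower calls in both lines were made for 1.41% of all tested genes. ANXA7 was called lower against control in both lines under every alternative run.

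The sh718 line held less ANXA7 than the sh720 line, at a log2 difference of -0.22 (SE 0.08, adjusted p 0.0272). That difference was lost under 6 alternatives. They were upper quartile scaling (-0.19, adjusted p 0.0667), no count minimum (0.0584), DESeq2 (0.116), sh718 library 3 left out (0.105), sh720 library 3 left out (0.109) and removal of the GC and length trend (-0.10, adjusted p 0.366). The range over all alternatives was 0.0213 to 0.366.

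ANXA11 (ENSG00000122359, 80150889 to 80205572, minus strand) encodes a protein that tethers RNA granules to lysosomes. It stood at 225, 282 and 256 CPM in sh718, 247, 257 and 268 CPM in sh720, and 277, 307 and 307 CPM in control. All sh720 libraries lay below control, and 1 sh718 library lay among the control values. Neither line was called for ANXA11, at a log2 of -0.22 in sh718 (SE 0.09, with edgeR's adjusted p at 0.0835) and -0.21 in sh720 (SE 0.09, p at 0.178 after adjustment). In sh718 it was called without sh718 library 2 (-0.30, adjusted p 0.0299) and after removal of the GC and length trend (-0.26, adjusted p 0.0287), the range over all alternatives being 0.0287 to 0.346. The difference between sh718 and sh720 was -0.01, with a 95% interval of -0.20 to 0.18.

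In each hairpin line, most tested genes between ANXA7 and ANXA11 were called lower than in control. Over these 6.74 Mb there are 27 tested genes, of which 17 fell and 1 rose in sh718 against control (median log2 change -0.52). In sh720 against control, 17 also fell and 1 rose (median -0.60). Among all tested genes, 10.8% were called lower and 9.56% higher in sh718, and 3.42% lower and 3.43% higher in sh720. The 2 comparisons share the control libraries. Between sh718 and sh720, 7 of the 27 were higher in sh718 and 2 lower (median 0.03). Among all tested genes, 12.3% were called higher and 13% lower there. Among the 5 tested genes on either side of ANXA7, 4 fell and 1 rose in sh718. Those that fell were the splicing-related gene ECD (-1.10, SE 0.15), the mitochondrial ribosome gene MRPS16 (-0.74, SE 0.09), USP54 (-0.80, SE 0.28) and CHCHD1 (-0.45, SE 0.08), and the one that rose was the fucosyltransferase gene FUT11 (0.95, SE 0.14). In sh720, 4 of the 10 fell, namely ECD (-0.65), MRPS16 (-0.35), CHCHD1 (-0.62) and P4HA1 (-0.33). The part of this region in the ANXA7 result was not tested.

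**Figure D3:**
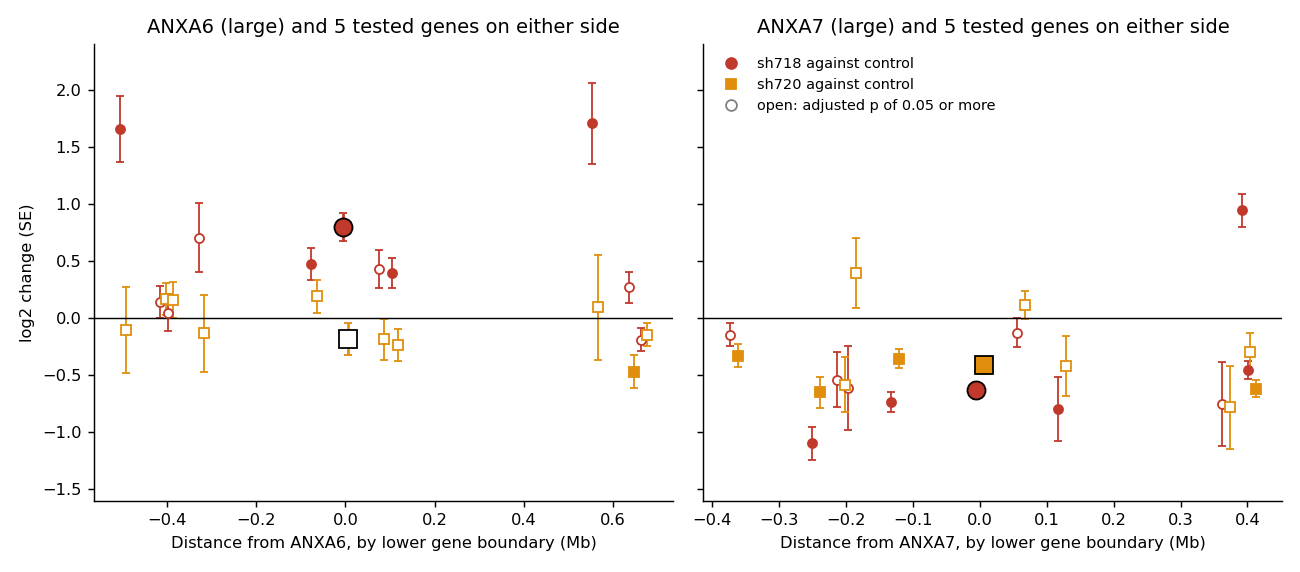
Log2 change against control with its SE for ANXA6 (left) and ANXA7 (right), drawn large, and for the 5 tested genes on either side, by distance in Mb. Red circles are sh718 and orange squares sh720, and filled symbols have an adjusted p under 0.05. The median of the 10 neighbors is 0.41 in sh718 and -0.12 in sh720 around ANXA6, and -0.58 and -0.39 around ANXA7.

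Around the other called annexins the neighbors had medians closer to 0 in sh718. Around ANXA2, 1 of 10 neighbors was called in sh720 against control, beside 6.85% of all tested genes. The median log2 change of the 10 was -0.06 in sh718 and -0.04 in sh720. Around ANXA5 it was 0.18 in sh718 and 0.09 in sh720.

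Levels of different annexins were compared as CPM per kb of RNA, and their order depended on the RNA length chosen. Dividing by length takes reads to come from the whole RNA, which was not checked here. On plain mean CPM in control, ANXA7 (672) lay above ANXA5 (536), and ANXA11 (297) above ANXA1 (161). With the longest protein-coding transcript as the length, ANXA2 was highest, at 1070 ± 27.7 CPM per kb in sh718, 1110 ± 14.6 in sh720 and 925 ± 39.1 in control (SD, n = 3 libraries). ANXA5, ANXA7 and ANXA1 followed in all 3 lines, and each of these was clear of the next by the range of its libraries, except ANXA1 and ANXA6 in sh718, which overlapped. ANXA5 stood at 317 ± 12.9, 359 ± 10.5 and 304 ± 10.5 CPM per kb in sh718, sh720 and control, and ANXA7 at 177 ± 5.01, 206 ± 6.69 and 274 ± 22.2. ANXA6 held rank 5 in sh718 (64.4 ± 7.63) and rank 6 in sh720 (32.6 ± 2.92) and control (37.3 ± 4.43), and it overlapped ANXA3 in sh720 and control and ANXA11 in control. ANXA4 was lowest, at 20.9 ± 3.83, 19.1 ± 2.28 and 21.2 ± 3.35 CPM per kb. The length was chosen after the data were seen.

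With the union of all annotated exons, the length planned first, ANXA2 kept the top place in sh718 and sh720 at 203 and 211 CPM per kb, although ANXA5 (209) overlapped it in sh720. In control ANXA7 came first at 235 CPM per kb, above ANXA5 (177) and ANXA2 (176), which overlapped. The union length of ANXA2 is 8824 bases, against 1676 bases for its longest protein-coding transcript. ANXA4 had the lowest mean on all 3 lengths tried.

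**Figure D4:**
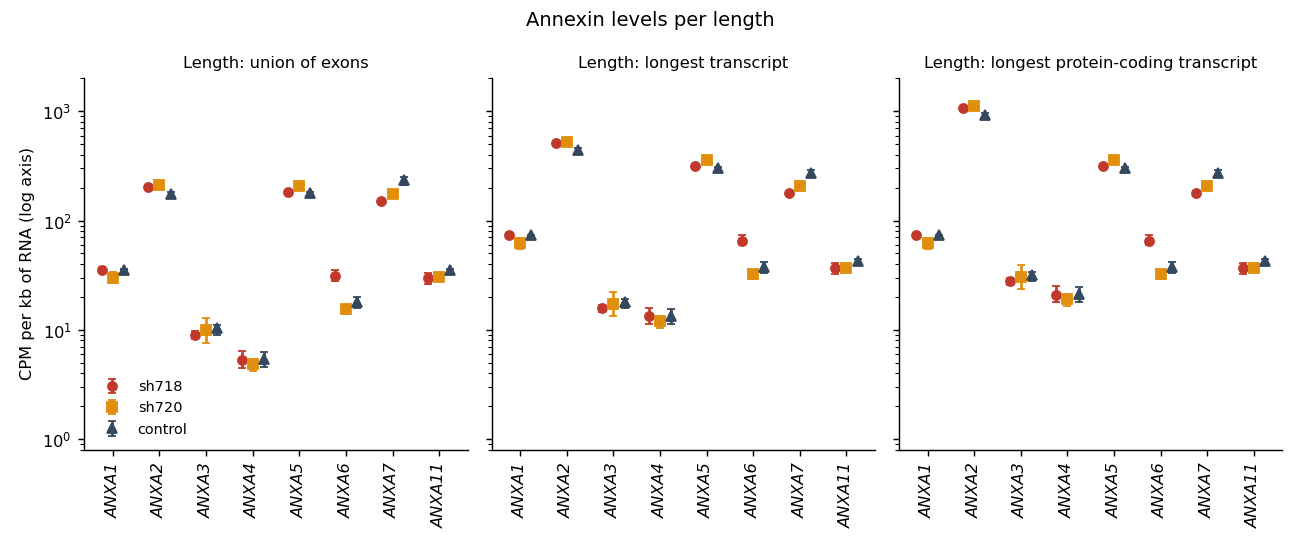
CPM per kb of RNA on a log axis for the 8 annexin genes in sh718, sh720 and control, with 3 choices of RNA length, 1 per panel. Symbols are means and bars run from the lowest to the highest of 3 libraries. ANXA2 leads all panels except for the control line on the union of exons, where ANXA7 (235 CPM per kb) is higher.

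Other genes followed the 4 called annexins closely over the 9 libraries. The 3 genes most like each were taken by Pearson's r of log2 CPM among 6591 tested genes averaging at least 20 CPM, and since all 9 libraries and their line differences are shared, r is a description. Most like ANXA2 were the trefoil peptide gene TFF1 (r 0.97), the Wnt cargo receptor gene WLS (0.96) and S100A6 (0.96). Most like ANXA5 were LDHA (0.97), SLC7A1 (0.95) and MAL2 (0.94). ANXA6 was followed by UBAP2L (0.98), ANAPC11 (0.97) and the glucose transporter gene SLC2A1 (0.97). ANXA7 was followed by CAMK2G (0.97) and SRGN (0.96), both also on chromosome 10, and by ACER3 (0.96). Among the annexins themselves, r was -0.81 for ANXA7 with ANXA2, 0.79 for ANXA5 with ANXA2 and 0.78 for ANXA11 with ANXA7.

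Most of the genes for binding partners and receptors of annexins that were called against control were higher in the hairpin lines. Of 15 listed partners, 12 had a row and 10 were tested, of which 4 rose and 1 fell in sh718 and 4 rose in sh720. Among all tested genes, 9.56% were called higher and 10.8% lower in sh718. For sh720 the shares were 3.43% higher and 3.42% lower. Between sh718 and sh720, 2 of the 10 partners were higher in sh718 and 2 lower. The 4 that rose in sh718 were S100A10, S100A11, S100A6 and S100A4. They lie near each other on chromosome 1, between 151982915 and 153550136, and the part of this region was not tested. The median log2 change of the 10 partners was 0.09 in sh718, beside 0.0024 for all tested genes. In sh720 it was 0.16, beside 0.0015. S100A10, the partner of ANXA2, had 1482, 1370 and 1371 CPM in sh718, 984, 958 and 951 CPM in sh720, and 882, 780 and 796 CPM in control. The 3 lines did not overlap. The rise of S100A10 was 0.78 on the log2 scale in sh718 (SE 0.06), at an edgeR adjusted p of 6.96e-16. For sh720 it was 0.24 (SE 0.07), at 0.0143. Leaving out sh720 library 1, control library 2 or control library 3 ended the sh720 call (log2 changes 0.20 to 0.22).

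S100A11 and S100P differed between the hairpin lines, whereas S100A6 rose in both. S100A11, the partner of ANXA1, rose by 0.45 in sh718 (SE 0.07, adjusted p 1.7e-06) and lay at -0.06 in sh720, a difference of 0.51 between the hairpins (adjusted p 7.47e-08). S100A6, which binds ANXA2 and ANXA11, rose by 0.26 in sh718 and 0.25 in sh720 (SE 0.055 in both). S100A4 rose by 0.45 in sh718 (SE 0.12), a call lost without control library 1. S100P rose by 0.76 in sh720 (SE 0.20), with a difference of -0.72 between sh718 and sh720 (edgeR adjusted p 0.00381). DESeq2 called S100P neither in sh720 nor between the hairpin lines. Its sh720 call was also lost without sh720 library 2 and without control library 1. S100A4 and S100P lie outside the rule for genes named and were picked after their values were seen.

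PLAT, which encodes the tissue plasminogen activator bound by the ANXA2 complex, had 355, 407 and 406 CPM in sh718, 542, 576 and 603 CPM in sh720, and 352, 359 and 354 CPM in control. PLAT rose by 0.69 in sh720 (SE 0.08, edgeR adjusted p 1.67e-10) and lay at 0.13 in sh718 (adjusted p 0.253), a direct difference of -0.56 (SE 0.08, adjusted p 2.38e-08). ANXA2R, the annexin A2 receptor gene, had 52 summed counts in sh718, 77 in sh720 and 102 in control. It fell by 0.93 in sh718 (SE 0.25), with an edgeR adjusted p of 0.00408, and its change in sh720 was -0.46 (adjusted p 0.265). Every library of both lines lay below control, as for 17.1% of all tested genes in sh718 and 11.9% in sh720. The sh718 call was lost with DESeq2 (log2 change -0.92), without sh718 library 2 (-0.67) and without control library 3 (-0.78). The partners SRI, AHNAK and RASA1 were called in neither line, at -0.14, -0.16 and -0.02 in sh718 and -0.12, 0.03 and 0.12 in sh720. Too few counts were found for PDCD6 and PLA2G4A.

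**Figure D5:**
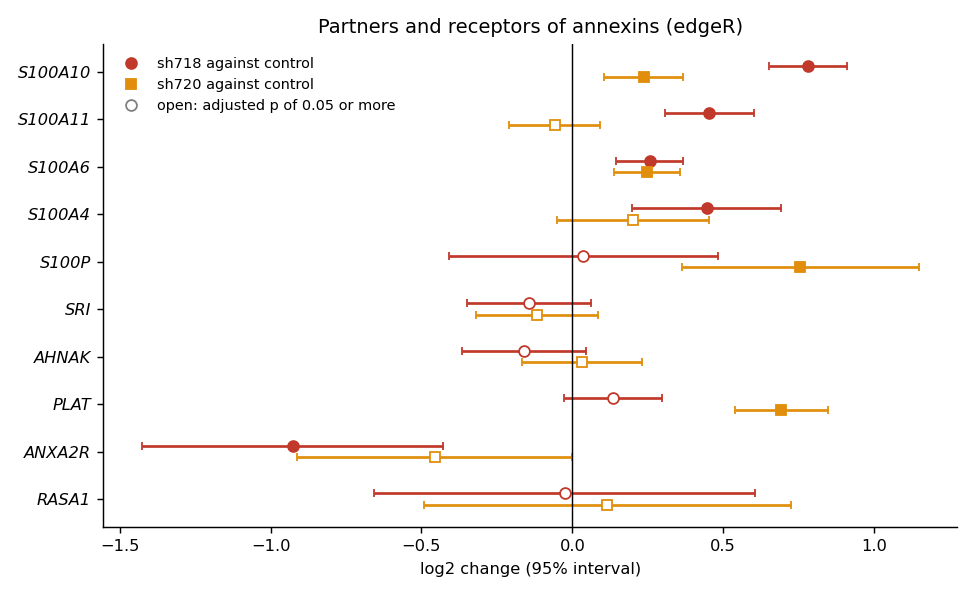
Log2 change against control with its 95% interval for the 10 tested partner and receptor genes of annexins, in sh718 (red circles) and sh720 (orange squares). Filled symbols have an adjusted p under 0.05. S100A10 (0.78 and 0.24) and S100A6 (0.26 and 0.25) are filled in both lines.

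Several annexins act in plasma membrane repair. Of the 16 repair genes tested, 3 were called higher and 3 lower in sh718 (median log2 change -0.0084), beside 9.56% higher and 10.8% lower among all tested genes. In sh720 1 of the 16 was called, lower (median -0.11), close to the 6.85% called among all tested genes. PDCD6IP, which encodes the ESCRT adaptor ALIX, had 40.1, 45.3 and 36.0 CPM in sh718, 127, 123 and 114 CPM in sh720, and 124, 121 and 106 CPM in control. It fell by 1.52 on the log2 scale in sh718 (SE 0.15, edgeR adjusted p 1.5e-12) and lay at 0.06 in sh720, a difference of -1.58 (adjusted p 1.35e-13). CAV1, the caveolin gene, fell by 0.41 in sh718 and by 0.43 in sh720 (SE 0.08 for both). It was the member of this list called lower in both lines.

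The other repair genes called in sh718 lost their calls under some alternatives. DYSF, which encodes the membrane repair protein dysferlin, fell by 1.11 in sh718 (SE 0.36, adjusted p 0.0189) on 22 summed counts in sh718, against 49 in control, and DESeq2 did not call it (-1.12). Leaving out sh718 library 1 (-1.04) or control library 2 (-0.98) also ended the call. The calpain subunit gene CAPNS1 (0.31, SE 0.09), the ESCRT gene CHMP3 (0.40, SE 0.14) and the ESCRT ATPase gene VPS4B (0.36, SE 0.13) rose in sh718. DESeq2 called none of the 3 (log2 changes 0.31, 0.40 and 0.37), and without control library 3 all 3 calls were lost (0.19, 0.32 and 0.37), which left 3 called members in the list. Over the 17 alternatives VPS4B lost its call in 8 (log2 changes 0.29 to 0.40) and CHMP3 in 6 (0.32 to 0.42), no count minimum and sh718 library 1 or 3 left out among them for both. Without sh718 library 1 the list also had 3. In sh720 VPS4B lay at 0.37 (edgeR adjusted p 0.0823) and DYSF at -0.76 (adjusted p 0.180), neither called. CAPNS1 and CHMP3 lay at -0.11 and 0.12 there and were not called either.

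Among genes that set phosphatidylserine exposure, 7 were tested, of which 1 rose and 1 fell in sh718, near the 9.56% called higher and 10.8% called lower among all tested genes. The scramblase gene ANO6 fell by 1.45 (SE 0.36, edgeR adjusted p 0.00204) on 18 summed counts in sh718, 56 in sh720 and 51 in control. XKR8, which encodes a caspase-activated scramblase, rose by 1.05 (SE 0.36, adjusted p 0.0287) on 47 counts in sh718, 19 in sh720 and 23 in control. The XKR8 value rested on sh718 library 2 (25.2 CPM, against 13.0 and 11.7 in the other sh718 libraries), without which it was 0.60 and not called. Leaving out control library 1, 2 or 3 also ended its call (1.03 to 1.08), as did DESeq2 (1.06). In sh720 edgeR called 0 of the 7, with 0 at an unadjusted p under 0.05 and 0 by DESeq2.

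The annexin family genes ANXA9 and ANXA10 were listed but too low to test. ANXA9 had no count in sh718 or sh720 and 2 in control, and ANXA10 had 5, 3 and 2 counts in sh718, sh720 and control.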

How the data were processed

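The deposited table holds read counts per gene for 9 libraries, 3 for each of the sh718, sh720 and control lines, listed as 1 sample per line. The authors trimmed 75 bp reads with Trim Galore and used the GRCh38 build, per the submitters' processing notes and the labels. No source used here gives the aligner, the counter, its strand setting or its annotation release.

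A gene was kept if the mean of its 3 line sums was at least 20 counts (9556 genes). Counts were TMM-scaled and fitted over all 9 libraries with edgeR 4.0.16 (limma 3.58.1, R 4.3.3), using quasi-likelihood tests and Benjamini-Hochberg adjustment over all genes tested. DESeq2 1.42.0 was an alternative. On simulated data for sh718 against control over 9556 genes, 23% of genes changed by a log2 of 0.5 and 76% of genes changed by a log2 of 1 were recovered. Positions and lengths are from GENCODE release 29. The genes named were the 8 members, other ANXA genes, CTHRC1, the 3 genes most like each called member, and from each list up to 4 genes per direction called against control, by lowest adjusted p. Single neighboring genes, markers and uncalled partners were named after their values were seen. The members and lists were chosen with earlier results of these data known. No columns were left unmapped.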

Additional observations from a re-analysis of the deposited data

Results flagged for a closer look

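In edgeR's test of sh718 against sh720, 25.3% of all tested genes were called, 12.3% higher and 13% lower. The calls were 2 of 8 annexins, 4 of 10 partner genes, 4 of 16 repair genes and 2 of 7 exposure genes. Apart from the partner genes, these counts lie near the share of all genes. The following genes differed between the 2 hairpin lines by that test, so that their changes against control were unequal in the lines. Among the annexins these were ANXA6 (log2 difference 0.98) and ANXA7 (-0.22). The ANXA7 call was lost under several alternatives, DESeq2 and removal of the GC and length trend (-0.10) among them. Among partner genes they were S100A10 (0.55), PLAT (-0.56), S100A11 (0.51) and S100P (-0.72), the last not called by DESeq2. Among membrane repair genes they were CAPNS1 (0.42), PDCD6IP (-1.58), the syntaxin gene STX4 (0.65) and the ESCRT gene TSG101 (-0.62). DESeq2 called 1 of the 2 repair genes that were higher in sh718, and both that were lower. Among phosphatidylserine exposure genes they were XKR8 (1.38), which lost its call with DESeq2 (1.39) and without sh718 library 2 (0.92), and ANO6 (-1.53). CTHRC1, the gene aimed at by both hairpins, was itself lower in sh718 than in sh720 (-3.05), with 5 summed counts in sh718 against 47 in sh720.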

How the results depend on the processing

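With DESeq2 the genes called numbered 1007 in sh718 against control, 307 in sh720 against control and 1293 in sh718 against sh720, compared with 1947, 655 and 2419 by edgeR. DESeq2 also called 2 membrane repair genes in sh718, and 1 phosphatidylserine exposure gene in sh718 against control and 1 in sh718 against sh720. Of the annexins, 1 was called in sh718 against sh720 under upper quartile scaling, no count minimum and DESeq2 (1 each). Leaving out each library in turn gave 1 to 3 annexins in sh718 against sh720, 3 to 6 repair genes in sh718, and 1 to 2 exposure genes in sh718 and 1 to 3 in sh718 against sh720. These values changed sign. In sh718 against control ANXA1 was -0.00205 with no count minimum, -0.00577 with filterByExpr and -0.0443 to 0.0313 with libraries left out, and ANXA4 was 0.00153 (DESeq2 size factors), 0.0153 (upper quartile), 0.0875 (GC and length trend removed) and -0.167 to 0.107. In sh720 against control, leaving out libraries gave -0.284 to 0.0954 for ANXA3 and -0.0103 to 0.102 for PDCD6IP. In sh718 against sh720 ANXA2 was 0.0171 with the trend removed, ANXA11 0.0218 under upper quartile scaling, and VPS4B 0.00205 (DESeq2 size factors), 0.0283 (upper quartile), 0.00446 (DESeq2) and 0.134 (trend removed). Leaving out libraries there gave -0.302 to 0.0847 for ANXA3, -0.0306 to 0.244 for ANXA4, -0.0916 to 0.0678 for ANXA11, -0.00516 to 0.0238 for S100A6, -0.0747 to 0.0725 for VPS4B, -0.0487 to 0.112 for CAV1 and -0.541 to 0.0289 for DYSF. The cause was not tested. With the replicate number as a block, 1977, 680 and 2425 genes were called and 3, 3 and 3 annexins, ANXA5 being added in sh718 against sh720 (-0.18). Same-numbered libraries of different lines did not deviate together (r -0.0127 to 0.0219). Counting noise is large at this depth, so this does not show whether they were made together. A planned sum of ANXA2 with its processed copies was not run, and no such copy was among the listed genes with an ANXA symbol. The depth, 883663 to 1108960 counts a library, limits genes with few counts, such as ANXA3 and ANXA4 among the annexins and DYSF, ANO6 and XKR8 in the lists.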
